A study of Homo sapiens with 42 samples.

Results

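The 6 CCN genes, CCN1 to CCN6, were followed through 42 polyA RNA-seq libraries of the 786-O kidney cancer line. The members were chosen by gene symbol out of the 60609 genes counted in each library. The family was picked with results from both batches already known, so the adjusted p-values given for its members describe these libraries and are not independent tests. All 6 symbols occurred once in the count tables.

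CCN proteins are matricellular: they are secreted into the extracellular matrix and signal there, mostly through integrins and heparan sulfate proteoglycans, without being structural parts of the matrix. CCN1 (CYR61) and CCN2 (CTGF) are fast-responding genes and standard readouts of the Hippo pathway coactivators YAP and TAZ, and CCN2 is also a classical TGF-beta target in kidney fibrosis. CCN3 (NOV) is often described as opposing CCN2, and CCN4 (WISP1), CCN5 (WISP2) and CCN6 (WISP3) were named for their link to Wnt-1 signaling.

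The study asked how much of the difference between the hypoxia-inducible factors HIF-1a and HIF-2a lies in their intrinsically disordered region (IDR). 786-O cells come from a clear cell renal cell carcinoma (ccRCC), have lost VHL so that HIF-2a is always stable, and lack functional HIF-1a. Each of the 14 groups held 3 libraries, 27 libraries of 9 groups in batch 1 and 15 libraries of 5 groups in batch 2. The study calls the 3 libraries of a group biological replicates, but the labels do not say whether they came from separate cultures. The p-values thus rest on a spread between libraries that may be technical in part. The test used here, edgeR's quasi-likelihood test, estimates that spread from all groups of a fit. It also draws each gene's estimate toward that of other genes. An SE or p-value below therefore does not measure the spread of a gene's own libraries alone.

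Unmodified cells (WT) were sequenced in both batches. Batch 1 held 2 knock-in lines, HIF-1b KIN (clone A21) and HIF-2a KIN (clone A31), in which both endogenous alleles carry a V5-Halo tag, and each is a single clone. The other lines were WT cells with an added V5-Halo-HIF-a gene under the weak L30 promoter, inserted by PiggyBac transposition and selected with puromycin, on top of their own HIF-2a. They carried HIF-1a or HIF-2a (both batches), a DNA binding mutant (HIF-1a R30E, HIF-2a R27E) or a dimerization mutant (HIF-1aDM, HIF-2aDM) of either (batch 1), or a swap (batch 2). HIF-2a/1a has the structured N-terminal portion of HIF-2a followed by the HIF-1a IDR, and HIF-1a/2a is the reverse. No line with an empty vector was among the libraries analysed here, so in comparisons with WT the inserted protein cannot be told apart from insertion and selection. Within a batch the labels name no separately made lines of a construct. Comparisons between constructs, those of the IDRs included, thus cannot tell a construct apart from the line that carries it.

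The library totals ran from 42377599 to 101186554 counts in batch 1 and from 76366799 to 109642159 in batch 2. A normalized count is a count scaled to the mean TMM-adjusted library size of its batch. The added genes were visible in the counts: HIF1A stood at 243 ± 16.8 normalized counts in WT of batch 1 and at 3036 ± 215 (SD, n = 3) in HIF-1a, and EPAS1, which encodes HIF-2a, at 14547 ± 2124 and, in HIF-2a, 45191 ± 6574. In batch 2 HIF1A reached 13252 ± 489 (SD, n = 3) in HIF-1a. Reads of a tagged or swapped transgene cannot be told from those of the endogenous gene. The renal marker PAX8 was high throughout (lowest 205 CPM), as were VIM and KRT8, while CA9 had medians of 0.0201 and 0.0768 CPM in the 2 batches and reached 70.7 and 24.1 CPM, and NDUFA4L2 stayed at or below 2.80 CPM. Of 7 markers of stromal, endothelial and immune cells, PTPRC, PECAM1, CDH5 and DCN never passed 0.114 CPM, and LUM, ACTA2 and PDGFRB reached 3.58, 7.86 and 20.3 CPM.

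The family was split into 3 expressed members and 3 that were barely detected. Per kilobase of exon, the median CCN1 level was 127 CPM in batch 1 and 171 CPM in batch 2. CCN2 stood at 15.6 and 15.3, and CCN3 at 0.407 and 0.352. CCN4, CCN5 and CCN6 reached 0.0225, 0.258 and 0.0269 CPM per kilobase in the library where each was highest. CCN1 alone made up between 80.4% and 94.3% of the summed per-length level of the family in every library of both batches, and CCN3 at most 1.63%.

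**Figure D1:**
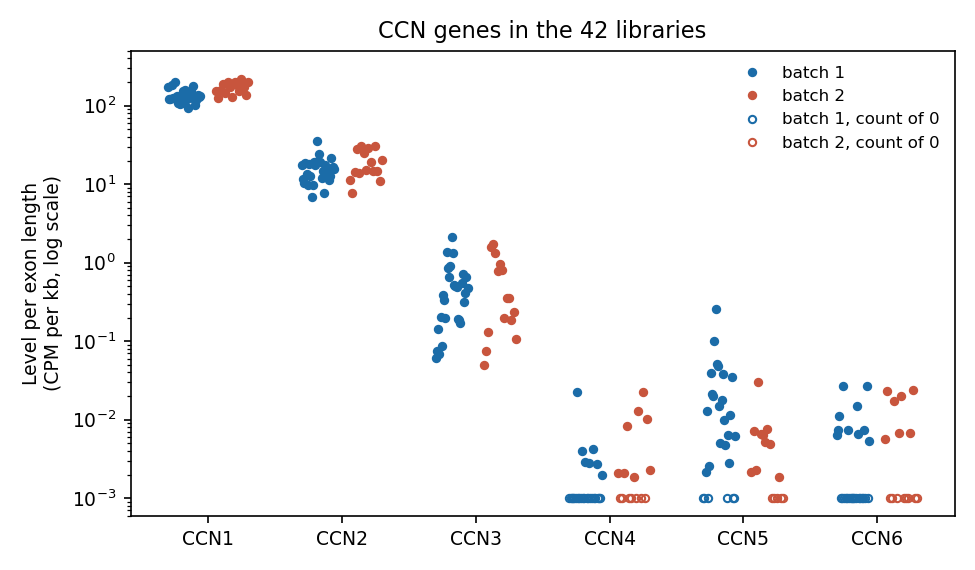
Level of each CCN gene per kilobase of exon (CPM per kb, log scale) in every library, batch 1 in blue and batch 2 in red, with counts of 0 drawn as open circles at the foot of the axis. CCN1 lies near 100, CCN2 near 10, CCN3 is spread over more than 10-fold within each batch, and CCN4 to CCN6 lie near or at 0.

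On hg38 (positions from GENCODE v44), CCN1 (ENSG00000142871.17) lies on chromosome 1 from 85580761 to 85584589, plus strand, and CCN2 (ENSG00000118523.6) on chromosome 6 from 131948176 to 131951372, minus strand. CCN6 (ENSG00000112761.20) is on chromosome 6 from 112054075 to 112069686, plus strand. CCN3 (ENSG00000136999.5) and CCN4 (ENSG00000104415.14) are both on chromosome 8, plus strand, from 119416446 to 119424434 and from 133191039 to 133231690. CCN5 (ENSG00000064205.10) is on chromosome 20 from 44714844 to 44728509, plus strand. Noncoding genes lie antisense to CCN2 (LINC01013), CCN3 (ENSG00000286282 and ENSG00000253398) and CCN5 (KCNK15-AS1), and the authors counted without regard to strand. LINC01013 and both genes opposite CCN3 had at most 1 count in any library, and KCNK15-AS1 had at most 10.

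A gene was called when its adjusted p was at most 0.01 and its fold change at least 2 (edgeR's quasi-likelihood test, Benjamini-Hochberg adjustment over all genes tested in the batch). Against WT, 6 of 48 pairs of a CCN gene and a line were called in batch 1 and 6 of 24 in batch 2, all of them higher than WT. Of all genes, between 0.431% and 5.73% were called per line in batch 1 and between 3.48% and 7.72% in batch 2. CCN3 accounted for 5 of the 6 in batch 1 and 4 of the 6 in batch 2.

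CCN3, the member called most often, had its lowest mean in unmodified cells. In WT it stood at 10.8, 13.4 and 25.0 normalized counts in replicates 1, 2 and 3 of batch 1. In WT of batch 2 it stood at 11.7, 17.8 and 30.2. Both sets lay well above the 3 counts taken as the floor of a library.

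In HIF-1a of batch 1, CCN3 stood at 240, 152 and 116 normalized counts. All 3 libraries lay above every WT library, and the log2 change was 3.35 ± 0.44 (SE), a 10.2-fold rise, with an adjusted p of 6.01e-06 by edgeR's quasi-likelihood test (Benjamini-Hochberg), where 3.78% of all genes were called. In HIF-1a of batch 2 the values were 371, 410 and 315, again without overlap with WT. The log2 change there was 4.20 ± 0.27, an 18.4-fold rise, with an adjusted p of 7.08e-17 in the same test (4.39% of all genes called). The 2 changes differed by 0.82 ± 0.51 on the log2 scale (batch 2 minus batch 1), with an adjusted p of 1.00 by edgeR's quasi-likelihood test (Benjamini-Hochberg) in the fit of both batches.

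CCN3 also rose in the DNA binding mutant of HIF-1a. HIF-1a R30E stood at 161, 376 and 235 normalized counts, above WT in every library and overlapping with HIF-1a. Its log2 change from WT was 3.95 ± 0.45 (15.5-fold), with an adjusted p of 8.25e-07 (2.61% of all genes called). Between HIF-1a and HIF-1a R30E the log2 difference was -0.61 ± 0.39, with an adjusted p of 0.556 (1.75% of all genes called), both from edgeR's quasi-likelihood test (Benjamini-Hochberg).

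The dimerization mutant HIF-1aDM had CCN3 at 90.3, 87.8 and 85.6 normalized counts, a narrow range above all WT libraries and below all HIF-1a libraries. The log2 change from WT was 2.40 ± 0.43 (5.28-fold), with an adjusted p of 0.00261 by edgeR's quasi-likelihood test (Benjamini-Hochberg). It was one of only 101 genes (0.431% of all tested) called in this line. HIF-1a minus HIF-1aDM was 0.94 ± 0.39 on the log2 scale and was not called, with an adjusted p of 0.301 in the same test (1.36% of all genes called).

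Among the lines built on HIF-2a, the active protein had the lowest mean CCN3 level, while among those built on HIF-1a it lay between the 2 mutants. HIF-2a of batch 1 stood at 33.5, 32.7 and 30.2 normalized counts, just above the highest WT library. The log2 change of 0.95 ± 0.44 was not called, with an adjusted p of 0.171 by edgeR's quasi-likelihood test (Benjamini-Hochberg), where 5.73% of all genes were called.

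HIF-2a R27E, the DNA binding mutant, had CCN3 at 95.5, 126 and 56.0 normalized counts. HIF-2aDM, the dimerization mutant, had it at 71.5, 116 and 83.0. No library of either mutant overlapped with WT or with HIF-2a. The rises over WT were 2.47 ± 0.43 (5.56-fold) and 2.43 ± 0.43 (5.41-fold) on the log2 scale, with adjusted p of 0.00166 and 0.00210 by edgeR's quasi-likelihood test (Benjamini-Hochberg). In these lines 0.483% and 0.47% of all genes were called. The calls of CCN3 in HIF-1aDM, HIF-2a R27E and HIF-2aDM were all lost without WT replicate 1 (log2 changes of 2.17, 2.25 and 2.21) or WT replicate 2 (2.28, 2.35 and 2.31), and each without its own replicate 2 (2.40, 2.19 and 2.23). That of HIF-2a R27E was also lost in a fit of these groups alone (adjusted p of 0.0870).

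Set against its own mutants, HIF-2a lay lower in CCN3 in every library. The log2 difference was -1.52 ± 0.42 from HIF-2a R27E and -1.48 ± 0.42 from HIF-2aDM, with adjusted p of 0.0200 and 0.0224 by edgeR's quasi-likelihood test (Benjamini-Hochberg), which misses the call (3.66% and 3.99% of all genes called). When the fit took the replicate number as a block, the first of these comparisons, in which the numbers paired the libraries, gave -1.48 and an adjusted p of 0.00511 in the same test, which is a call. DESeq2 called both (adjusted p of 0.00462 and 0.00515), and the first was also called without HIF-2a R27E replicate 3 (-1.81).

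HIF-2a minus HIF-1a was called for CCN3 in batch 1, at -2.39 ± 0.43 on the log2 scale (5.26-fold lower, no overlap), with an adjusted p of 4.58e-04 by edgeR's quasi-likelihood test (Benjamini-Hochberg), where 2.4% of all genes were called. Altogether 2 of 30 pairs were called in the 5 comparisons among the L30 lines of batch 1, this one and CCN5 in the same comparison, where between 1.36% and 3.99% of all genes were called per comparison.

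The knock-in clones carried no added gene. CCN3 stood at 12.0, 35.2 and 15.4 normalized counts in HIF-1b KIN, within and around the WT values, with a log2 change of 0.33 ± 0.44 (1.37% of all genes called). In HIF-2a KIN it stood at 67.6, 58.5 and 34.6, above every WT library. The log2 change of 1.68 ± 0.43 (3.20-fold) had an adjusted p of 0.0108, just short of a call (4.11% of all genes called). The replicate numbers paired the libraries of this comparison, and with them as a block the change was 1.61 with an adjusted p of 0.00310 and was called. Without WT replicate 3 or its own replicate 3 it was also called (2.12 and 1.92), as it was by DESeq2 (1.73). These adjusted p come, DESeq2 aside, from edgeR's quasi-likelihood test (Benjamini-Hochberg).

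In batch 1 the order of the mean CCN3 level was thus WT (16.4), HIF-1b KIN (20.9), HIF-2a (32.1), HIF-2a KIN (53.6), HIF-1aDM (87.9), HIF-2aDM (90.0), HIF-2a R27E (92.5), HIF-1a (169) and HIF-1a R30E (257 normalized counts). The ranges of neighbours overlapped except between HIF-2a and HIF-2a KIN and between HIF-2a KIN and HIF-1aDM. HIF1A itself stood at 210 ± 53.4 normalized counts in HIF-2a R27E and 192 ± 14.5 (SD, n = 3) in HIF-2aDM, near the WT level, and CCN3 was called in lines with and without an added HIF1A sequence. In HIF-2a of batch 1, where CCN3 was not called, HIF1A stood at 920 ± 287 (SD, n = 3). HIF1A was called higher than WT in HIF-2a of batch 1 (log2 change 1.92 ± 0.24) and of batch 2 (1.65 ± 0.08), and CCN3 in that of batch 2 only. The part of the HIF1A level in the CCN3 level was not tested.

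**Figure D2:**
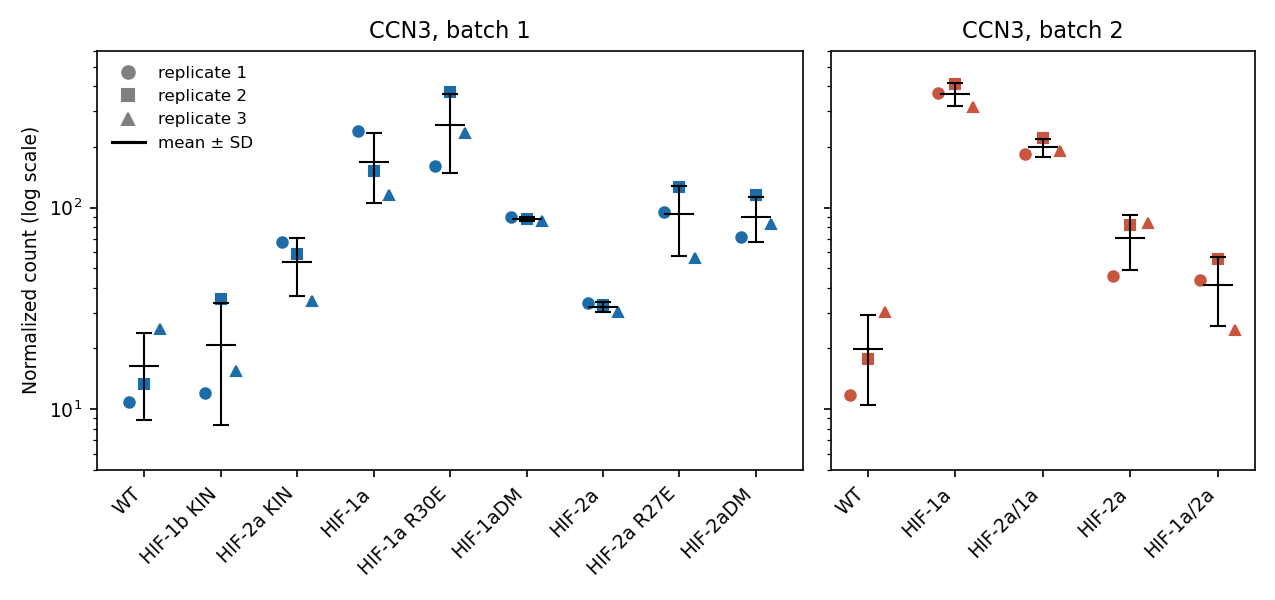
CCN3 normalized counts (log scale) in each library of batch 1 (left) and batch 2 (right), with the replicate number as the symbol and the mean ± SD of the 3 libraries as a bar. HIF-1a R30E (mean 257) and HIF-1a (169) stand highest in batch 1 and HIF-1a (365) in batch 2, and the 4 mutants lie above WT and above HIF-2a of batch 1.

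Batch 2 exchanged the IDRs. CCN3 stood at 184, 222 and 191 normalized counts in HIF-2a/1a, which has the HIF-1a IDR. It stood at 45.8, 82.3 and 83.7 in HIF-2a and at 43.8, 55.6 and 24.8 in HIF-1a/2a, which both have the HIF-2a IDR. The 2 lines with the HIF-1a IDR did not overlap with the 2 lines with the HIF-2a IDR.

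All 4 lines of batch 2 were called against WT. The log2 change was 3.33 ± 0.27 (10.1-fold) in HIF-2a/1a, 1.82 ± 0.29 (3.54-fold) in HIF-2a and 1.06 ± 0.31 (2.08-fold) in HIF-1a/2a. The adjusted p were 2.19e-13, 1.54e-06 and 0.00523 by edgeR's quasi-likelihood test (Benjamini-Hochberg), where 3.48%, 7.55% and 7.72% of all genes were called. The last line overlapped with WT. Its call was lost without WT replicate 1 (log2 change 0.81) or 2 (1.00), without its own replicate 1 (1.03) or 2 (0.83), and in a fit of these groups alone (adjusted p of 0.0381). HIF-2a in batch 2 exceeded its batch 1 change by 0.82 ± 0.55 on the log2 scale, with an adjusted p of 0.678 by the same test in the fit of both batches.

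The comparison of IDRs averages over both structured parts, and the comparison of structured parts averages over both IDRs. For CCN3 the HIF-2a IDR minus the HIF-1a IDR was -2.32 ± 0.17 on the log2 scale (5.01-fold lower), with an adjusted p of 2.87e-15 by edgeR's quasi-likelihood test (Benjamini-Hochberg), where 4.41% of all genes were called. The structured part of HIF-2a minus that of HIF-1a gave -0.06 ± 0.17, with an adjusted p of 0.905 in the same test (1.04% of all genes called). Its 95% interval ran from -0.41 to 0.30. Each construct of batch 2 was a single group, so these p-values do not measure differences between separately made lines of a construct.

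The IDR difference was unequal in the 2 backgrounds. With the HIF-1a structured part CCN3 averaged 365 normalized counts with the HIF-1a IDR and 41.4 with the HIF-2a IDR, an 8.83-fold lower mean. With the HIF-2a structured part it averaged 199 and 70.6, a 2.82-fold lower mean. The interaction was 1.63 ± 0.34 on the log2 scale, with an adjusted p of 8.71e-04 by edgeR's quasi-likelihood test (Benjamini-Hochberg), where 1.18% of all genes were called. Over the 6 members and these 3 comparisons, 3 of 18 pairs were called, 2 for CCN3 and 1 for CCN5.

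The 3 genes most like CCN3 over the 42 libraries, after centring each batch, were SLC48A1 (r = 0.900), which encodes a heme transporter of endosomes and lysosomes, SGSH (r = 0.874), which encodes a lysosomal heparan sulfate sulfamidase, and GDF15 (r = 0.851), a secreted stress-responsive cytokine. They were ranked among 12462 genes, and libraries of one line count as separate points, so the correlations describe these libraries. As the genes were picked for likeness over these same libraries, calls that they share with CCN3 are not separate support. All 3 were called higher than WT in HIF-1a, HIF-1a R30E, HIF-1aDM, HIF-2a R27E and HIF-2aDM of batch 1, the lines in which CCN3 was called, and in HIF-2a of batch 1 none of the 3 was called. For GDF15 the log2 change was 3.41 ± 0.25 in HIF-1a R30E, 2.13 ± 0.24 in HIF-1aDM and 0.49 ± 0.23 in HIF-2a. SLC48A1 parted from CCN3 elsewhere, with a change of -0.47 ± 0.13 in HIF-1a/2a and a structured-part difference of 0.54 ± 0.08. SGSH and GDF15 were called in HIF-2a KIN, at 1.66 ± 0.19 and 1.61 ± 0.24, where CCN3 had a change of 1.68 ± 0.43 just short of a call and SLC48A1 one of 0.33 ± 0.19.

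**Figure D3:**
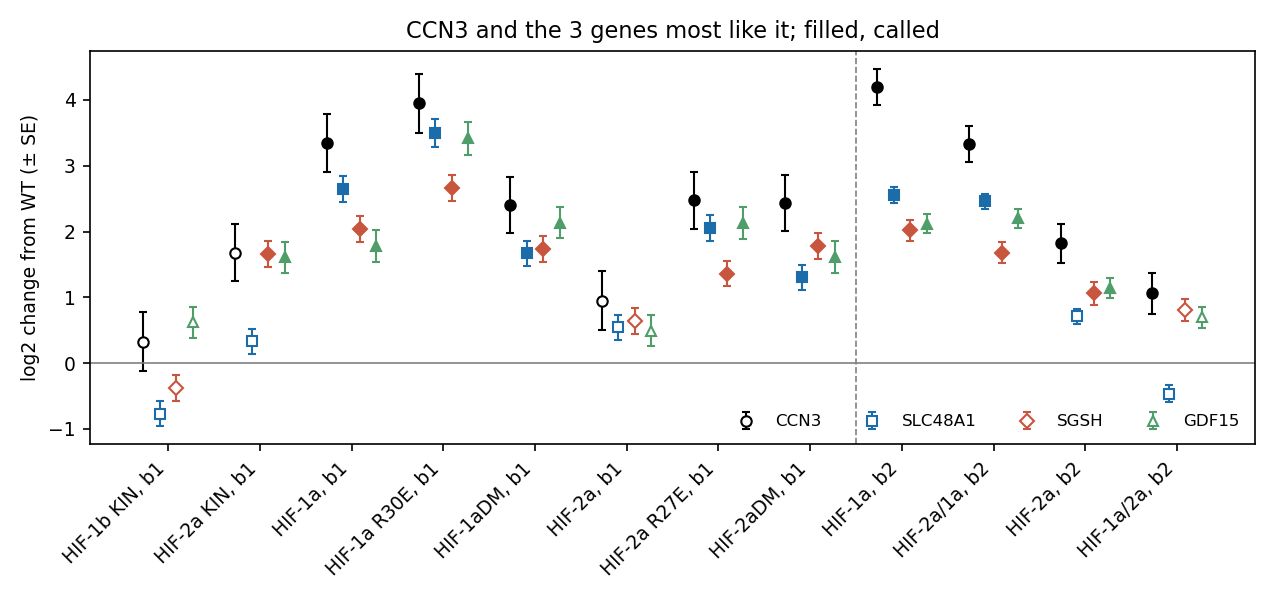
log2 change from WT (± SE, n = 3 libraries a group) of CCN3 and of the 3 genes whose levels followed it most closely, in the 8 lines of batch 1 (b1) and the 4 of batch 2 (b2), with called changes filled. Within batch 1 all 4 genes stand highest in HIF-1a R30E and are low in HIF-2a of batch 1, and SLC48A1 lies below 0 in HIF-1a/2a.

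CCN2, the other member called against WT in batch 2, is a secreted driver of matrix production. In WT of batch 2 it stood at 2379, 1605 and 2991 normalized counts. In HIF-1a it stood at 5840, 2880 and 6337 and in HIF-2a/1a at 5162, 3211 and 6024. HIF-2a/1a lay above WT in every library, while the lowest HIF-1a library, replicate 2, fell inside the WT range. At each replicate number WT was the lowest of the 5 groups in CCN2.

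The CCN2 changes were 1.11 ± 0.21 (2.16-fold) in HIF-1a and 1.05 ± 0.21 (2.07-fold) in HIF-2a/1a on the log2 scale, both called, with adjusted p of 4.35e-05 and 1.20e-04 by edgeR's quasi-likelihood test (Benjamini-Hochberg). Both sit at the edge of the fold limit. Neither was called by DESeq2 (adjusted p of 0.0184 and 0.0243), and leaving out WT replicate 2 took both under a 2-fold change (0.91 and 0.85). HIF-1a also lost its call without its own replicate 1 (1.00) or 3 (0.92), and HIF-2a/1a without its own replicate 3 (0.86). In all 5 groups replicate 2 was lowest in CCN2 and replicate 3 highest, so leaving out 1 library unbalances the numbers between groups.

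HIF-2a of batch 2 had CCN2 at 4059, 3046 and 6323 normalized counts, above every WT library. The change of 0.95 ± 0.21 had an adjusted p of 2.42e-04 but fell short of 2-fold, a limit it passed without WT replicate 3 (1.20) or its own replicate 1 (1.05) or 2 (1.19). HIF-1a/2a stood at 3079, 2280 and 4233 with a change of 0.46 ± 0.21 and an adjusted p of 0.0845, both from edgeR's quasi-likelihood test (Benjamini-Hochberg). For the IDR comparison the CCN2 difference was -0.37 ± 0.15, with an adjusted p of 0.0443 in the same test, in the direction of CCN3 and well under 2-fold.

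In batch 1 CCN2 was not called in any line. WT stood at 2730, 1806 and 1622 normalized counts, HIF-1a at 1544, 2977 and 2750, and HIF-2a at 1211, 2770 and 2238. Libraries of both knock-in clones and of HIF-1aDM, HIF-2a R27E and HIF-2aDM ran from 1090 to 3392. The largest change was in HIF-1a R30E, at 5631, 3103 and 3804, above every WT library. Its log2 change was 1.03 ± 0.33, with an adjusted p of 0.0708 by edgeR's quasi-likelihood test (Benjamini-Hochberg). With no filter on low counts the same test gave 1.64e-05, a call. That filter leaves the counts of CCN2 as they are, so the 2 values differ only through the other genes in the fit. HIF-1a minus HIF-1a R30E was -0.79 ± 0.33 without overlap, with an adjusted p of 0.253 in the same test. Of the 8 comparisons with WT, 1 had an unadjusted p under 0.05, and DESeq2 called 0. The HIF-1a change in batch 2 exceeded that in batch 1 by 0.83 ± 0.45 on the log2 scale, which was not called.

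CCN2 is one of the textbook genes of the TEAD factors, which carry YAP and TAZ to DNA, and the 250 bases before its start are shown for that reason (RefSeq, GRCh38.p14, minus strand, chr6:131951373-131951622, printed 5′ to 3′ along the gene). Capitals mark GGAATG, the core of the TEAD motif, searched on both strands.

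CCN2: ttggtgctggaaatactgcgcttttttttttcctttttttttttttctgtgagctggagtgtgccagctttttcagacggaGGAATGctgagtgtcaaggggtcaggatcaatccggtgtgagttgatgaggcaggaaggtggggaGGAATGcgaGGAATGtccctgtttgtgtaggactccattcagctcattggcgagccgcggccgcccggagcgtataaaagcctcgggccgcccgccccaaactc

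The window held 3 matches, and 29 of 35116 promoter windows of the same length (0.0826%) held 3 or more, while 11.9% held at least 1. It held no ACGTG or GCGTG, the core letters of the hypoxia response element, which occurred in 18.5% and 32.2% of all windows. The CCN6 window held 2 matches to ACGTG, 0 to GCGTG and 1 to GGAATG. No window of the other 4 members was used. A match is a description of the letters and not of a bound site.

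CCN1, an integrin ligand induced by growth factors and stretch, was the most abundant member. In WT it stood at 42736, 30501 and 30134 normalized counts in batch 1 and at 50227, 41193 and 51664 in batch 2. Group means ran from 28398 in HIF-2a R27E to 38494 in HIF-2a in batch 1, and from 47695 in WT to 60867 in HIF-2a in batch 2. The ranges of all neighbours in these orders overlapped. In batch 2 WT was nevertheless the lowest of the 5 groups in CCN1 at each replicate number.

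No CCN1 change was called. Against WT, 0 of 8 comparisons in batch 1 and 3 of 4 in batch 2 had an unadjusted p under 0.05, and DESeq2 called 0 in either. The largest in batch 2 was HIF-2a, at 60055, 50703 and 71841 normalized counts, with a log2 change of 0.35 ± 0.11 and an adjusted p of 0.00854 by edgeR's quasi-likelihood test (Benjamini-Hochberg). HIF-1a followed with 0.31 ± 0.11 and an adjusted p of 0.0313 in the same test. In batch 1 the 8 changes from WT lay between -0.28 and 0.16.

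**Figure D4:**
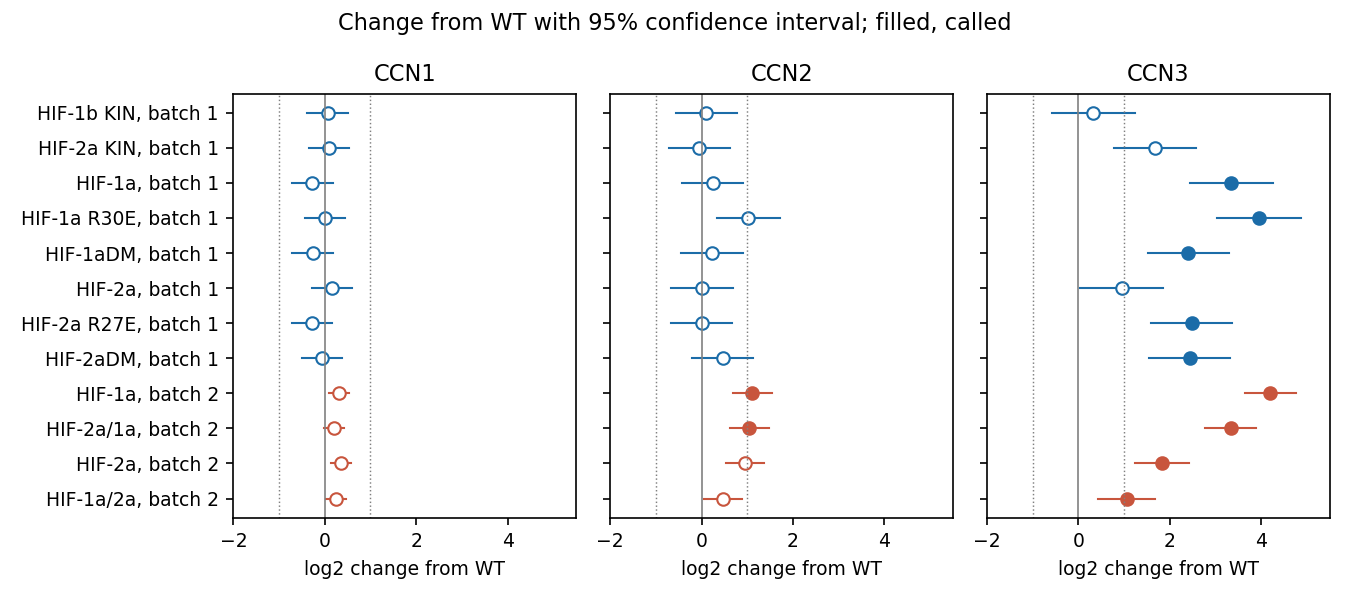
log2 change from WT of CCN1, CCN2 and CCN3 in the 8 lines of batch 1 (blue) and the 4 of batch 2 (red), with 95% confidence intervals, called changes filled and dotted lines at a 2-fold change. CCN1 stays inside the dotted lines in all 12 comparisons, CCN2 reaches them in HIF-1a R30E and in 2 lines of batch 2, and CCN3 is called in 9 of the 12.

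CCN1 and CCN2 moved together from library to library. Their levels correlated at r = 0.606 over the 42 libraries after centring each batch, at 0.452 over the 27 of batch 1 and at 0.884 over the 15 of batch 2. In batch 2 both genes were lowest in replicate 2 and highest in replicate 3 in all 5 groups. CCN1 ran from 41193 to 50703 normalized counts in the replicate 2 libraries and from 51664 to 71841 in the replicate 3 libraries. CCN2 ran from 1605 to 3211 and from 2991 to 6337. Over all genes the replicate numbers of batch 2 did not pair the libraries (mean correlation of same-numbered deviations between -0.00103 and 0.00932), and CCN3 showed no such order.

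**Figure D5:**
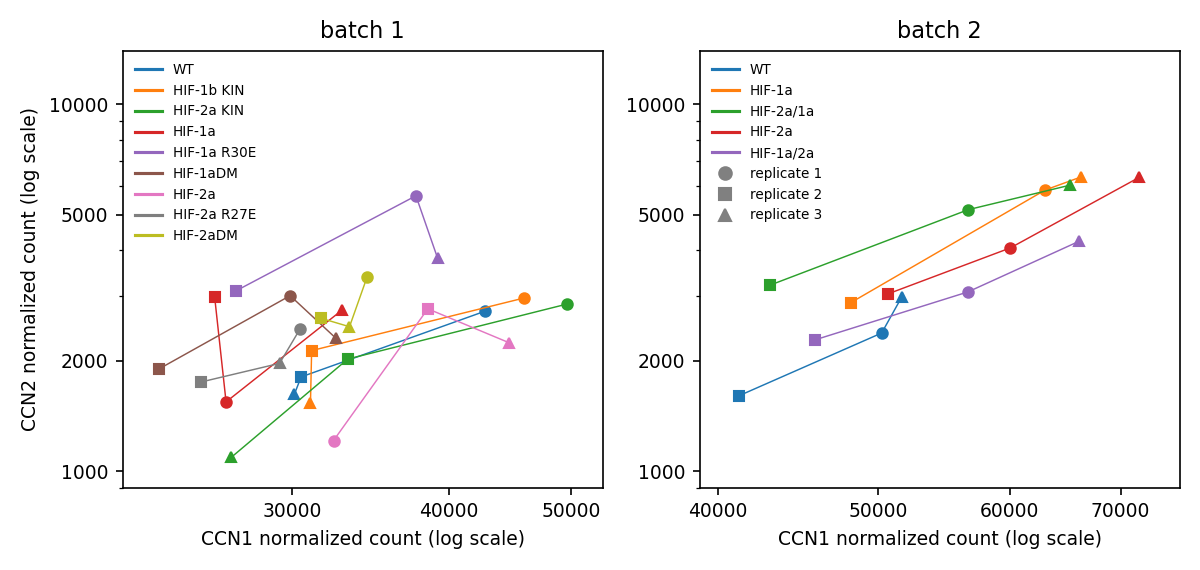
CCN2 against CCN1 (normalized counts, log scales) in the 27 libraries of batch 1 and the 15 of batch 2, with the replicate number as the symbol and a line joining the 3 libraries of a group in order of CCN1. In batch 2 each group runs from replicate 2 at the lower left to replicate 3 at the upper right.

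CCN5, a CCN protein that lacks the C-terminal domain of its relatives, had its highest counts in HIF-1a of batch 1. It passed the floor of 3 counts in 14 of 27 libraries of batch 1 and 3 of 15 of batch 2. Counts in WT of batch 1 were 0, 0 and 1, and those in HIF-1a of the same batch were 35, 62 and 19 (33.2, 86.3 and 17.2 when normalized). With WT set to a floor of 3 counts per library, CCN5 was at least 18.2-fold higher in HIF-1a, and the change was called, with an adjusted p of 5.76e-04 by edgeR's quasi-likelihood test (Benjamini-Hochberg). HIF-2a had counts of 1, 0 and 2, at least 10.9-fold lower than HIF-1a, with an adjusted p of 0.00714 in the same test. Both bounds rest on HIF-1a replicate 2, without which they were 10.1-fold and 6.05-fold. The second call was lost without HIF-1a replicate 1 or 2 or any 1 of the HIF-2a libraries (adjusted p between 0.0133 and 0.0589).

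Both HIF-1a mutants lay below HIF-1a. CCN5 counts were 12, 5 and 2 in HIF-1a R30E and 6, 13 and 4 in HIF-1aDM, below HIF-1a in every library, but HIF-1a minus each mutant was not called (adjusted p of 0.158 and 0.178 by edgeR's quasi-likelihood test with that adjustment). The counts were 1, 4 and 12 in HIF-2a R27E, 0, 0 and 3 in HIF-2aDM and 4, 0 and 1 in HIF-1b KIN. HIF-2a KIN had 10, 5 and 8 counts, also above WT, with an adjusted p of 0.0235 in the same test. The high CCN5 level was not seen in HIF-1a of batch 2, where counts were 14, 3 and 3 against 1, 4 and 1 in WT. The IDR comparison of batch 2 was called for CCN5 (adjusted p of 0.00399 in the same test), but it rests on counts of 14, 3, 3, 2, 4 and 2 in the lines with the HIF-1a IDR against 0, 0, 0, 1, 0 and 0 in the others, and DESeq2 set no adjusted p for it. It was lost without HIF-1a replicate 1, HIF-2a replicate 1 or 2, or HIF-1a/2a replicate 2 (adjusted p of at most 0.0303).

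CCN4 and CCN6 had too few counts for any comparison. CCN4 passed 3 counts in 1 of 27 libraries of batch 1 and 4 of 15 of batch 2, with at most 9 counts, in a HIF-2a library of batch 2. CCN6 passed 3 counts in 1 and 3 libraries, with at most 5. None of their changes was called by edgeR or by DESeq2, and 2 comparisons of CCN4 with WT and none of CCN6 had an unadjusted p under 0.05. A floor of 3 counts equals 0.0311 to 0.0713 CPM in batch 1 and 0.0271 to 0.0397 CPM in batch 2, which covers counting error only, so lower levels were not detectable at this depth.

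The differences between batches were tested for HIF-1a and HIF-2a in 12 pairs. edgeR's quasi-likelihood test called 0, 3 had an unadjusted p under 0.05 and DESeq2 called 0. Only 0.00374% of all genes were called for HIF-1a and 0% for HIF-2a, so this test calls almost nothing.

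The comparisons with WT share its libraries within each batch and are not independent of each other. The genes around the family were read from 5 lists chosen with earlier results of these data known. In the 3 mutant lines in which CCN3 rose and few genes were called (HIF-1aDM, HIF-2a R27E and HIF-2aDM), edgeR's quasi-likelihood test called 0 of 71 list entries in each, with 10, 6 and 7 at an unadjusted p under 0.05 and 0 called by DESeq2. Of all genes, 0.431%, 0.483% and 0.47% were called in these lines, so a count of 0 lies near the background.

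YAP and TAZ target genes other than CCN1 and CCN2 split in HIF-2a. In HIF-2a of batch 1, 4 of 20 rose and 2 fell (5.73% of all genes called), with a median log2 change of 0.35 against -0.08 over all genes. In HIF-2a of batch 2, 3 of 19 rose and 2 fell (7.55% of all genes called, median 0.43 against 0.05). IGFBP3, which binds insulin-like growth factors, rose by 4.15 ± 0.22 and 4.90 ± 0.08 and F3, tissue factor, by 3.06 ± 0.20 and 3.44 ± 0.06. ANKRD1, a muscle ankyrin repeat protein and a standard YAP target, fell by 2.61 ± 0.39 and by 1.96 ± 0.17. In HIF-1a 2 of 20 rose in batch 1 (median 0.05 against -0.04 over all genes) and 3 of 19 in batch 2 (median 0.20 against 0.03), and none fell. Of all genes, 3.78% and 4.39% were called in these 2 comparisons. In HIF-2a KIN none of 20 rose and 3 fell (4.11% of all genes called), with a median of -0.48 against -0.05 over all genes. DESeq2 called 2 there. In HIF-1b KIN none was called (1.37% of all genes called). The IDR comparison called 2 higher and 2 lower (4.41% of all genes called). F3 at 1.37 ± 0.04 and IGFBP3 at 2.45 ± 0.05 were higher and ANKRD1 was among the lower, where CCN1 was at 0.04 ± 0.08.

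Few Hippo core and TEAD genes were called. In batch 1 HIF-1a 1 of 16 was called and in batch 2 HIF-1a, HIF-2a/1a and HIF-1a/2a 1 each, and this was TEAD2, named after its values were seen, whose mean was 8.30 normalized counts in batch 1 and 9.54 in batch 2. Of all genes, 3.78%, 4.39%, 3.48% and 7.72% were called in these comparisons, so 1 of 16 lies near the background. In HIF-2a none was called in either batch by edgeR's quasi-likelihood test, with 5 and 12 at an unadjusted p under 0.05 and 0 by DESeq2.

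Some receptors of CCN proteins changed in the HIF-2a lines. LRP1, an endocytic receptor that takes up CCN2, rose by 2.18 ± 0.23 in HIF-2a of batch 1 and by 2.13 ± 0.09 in batch 2, and by 1.96 ± 0.23 and 1.62 ± 0.09 in HIF-1a. ITGB5, the integrin beta 5 subunit, rose by 1.20 ± 0.18 and 1.26 ± 0.05 in HIF-2a. ITGB2, the leukocyte integrin beta subunit, fell by 1.72 ± 0.31 and by 1.69 ± 0.13. In all, 3 of 12 rose and 1 fell in HIF-2a of batch 1 (median 0.25, against -0.08 over all genes, of which 5.73% were called). In HIF-2a of batch 2, 2 rose and 1 fell (median 0.23, against 0.05 over all genes, of which 7.55% were called). In HIF-1a 1 of 12 rose in each batch, where 3.78% and 4.39% of all genes were called, so 1 call lies near the background.

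Of the TGF-beta and SMAD target genes, 4 of 15 rose and 2 fell in HIF-2a of batch 1 (median 0.65) and 4 rose and 1 fell in batch 2 (median 0.40), where 5.73% and 7.55% of all genes were called and the medians over all genes were -0.08 and 0.05. In HIF-1a/2a, the other line with the HIF-2a IDR, 1 rose and 4 fell (7.72% of all genes called). In HIF-2a/1a 4 rose and none fell (3.48%), and the IDR comparison called 1 higher and 3 lower (4.41%). TGFBI, a secreted matrix protein, rose in HIF-2a by 1.40 ± 0.17 and 1.39 ± 0.05. In HIF-1a 2 rose in batch 1 and 1 in batch 2, LTBP2, a binding protein of the matrix, by 1.15 ± 0.23 and 1.01 ± 0.09. Of all genes, 3.78% and 4.39% were called in these 2 comparisons, so 1 of 15 lies near the background.

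Of the Wnt target genes, 3 of the 8 tested rose in HIF-2a of batch 1 (median 1.47) and 3 of 12 rose and 1 fell in batch 2 (median 2.04), where 5.73% and 7.55% of all genes were called and the medians over all genes were -0.08 and 0.05. NOTUM, a secreted Wnt deacylase, rose by 2.68 ± 0.43 and 3.49 ± 0.23. In HIF-1a of batch 2 1 of 12 rose, the transcription factor gene LEF1 (1.72 ± 0.26), where 4.39% of all genes were called, so 1 call lies near the background. CCN4, named for Wnt induction, had at most 4 counts there.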

How the data were processed

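PolyA RNA of 42 libraries was sequenced in 2 batches, batch 1 from RNeasy RNA with TruSeq-based libraries and batch 2 from TRIzol RNA with NEBNext libraries. The authors deposited raw read counts per gene: reads were aligned to hg38 with STAR and counted with HTSeq without regard to strand, so overlapping and antisense genes cannot be fully separated. The submitters' processing notes name STAR 2.7, HTSeq 0.11.1 and SAMtools 1.9, while the study's methods give other releases of the first 2. HIF-2aDM was grouped by title, since its genotype label names HIF-1a. The members and gene lists were chosen with earlier results of these data known.

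Counts were fitted per batch with edgeR 4.0.16 (quasi-likelihood test, TMM factors) in R 4.3.3, with all groups of the batch and genes of a mean normalized count of at least 0.5 (23410 genes in batch 1, 28724 in batch 2), and for differences between batches in 1 fit of WT, HIF-1a and HIF-2a (26763 genes). A call needed a change of 2-fold or more with a Benjamini-Hochberg adjusted p no higher than 0.01. The procedure was tested on simulated data. DESeq2 1.42.0, RLE factors, other filters and thresholds, smaller fits, a replicate block and leaving out each library were alternatives. Same-numbered libraries deviated together (every correlation over 0.1) in 7 of the 13 comparisons of batch 1, and in none of batch 2. Genes named outside the family were HIF1A and EPAS1, up to 3 called genes per list and comparison by size of change (mean normalized count of at least 50), and the 3 genes most correlated with each expressed member. Positions and exon lengths came from GENCODE 44, promoter letters from RefSeq.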

Additional observations from a re-analysis of the deposited data

Results flagged for a closer look

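The CCN3 difference between the IDRs depended on the structured part it was joined to, by a test of that difference itself. The HIF-2a IDR minus the HIF-1a IDR was smaller with the HIF-2a structured part (70.6 ± 21.5 against 199 ± 20.5 normalized counts, SD, n = 3) than with the HIF-1a structured part (41.4 ± 15.6 against 365 ± 48.1). The interaction was 1.63 ± 0.34 on the log2 scale, with an adjusted p of 8.71e-04 in edgeR's quasi-likelihood test, and 1.18% of all genes were called for it. HIF1A stood at 13252 normalized counts in HIF-1a, 9590 in HIF-2a/1a, 9685 in HIF-1a/2a and 930 in HIF-2a of that batch. Each swap carries only a part of the HIF1A coding sequence, so these counts do not rank the lines by transgene level. The part of these levels, or of other differences between the lines, in the result was not tested.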

How the results depend on the processing

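Calls of CCN genes among the L30 lines of batch 1 went from 2 to 4 with DESeq2, with no filter on low counts, with the replicate block and with an adjusted p of at most 0.05 and no fold minimum. The cause was not tested. With 1 library left out, calls against WT ranged from 3 (without WT replicate 1 or 2) to 7 in batch 1 and from 3 (without WT replicate 2) to 7 in batch 2, and those among the L30 lines from 1 (without HIF-1a replicate 1 or 2 or any HIF-2a library) to 3. Uncalled CCN3 values turned sign: HIF-1b KIN minus WT ranged from -0.26 to 0.77 and the structured-part difference from -0.17 to 0.079. The replicate block gave 7 calls against WT in batch 1. Beyond the paired comparisons named above it changed 1 CCN3 call, HIF-2a minus HIF-2aDM (-1.46, adjusted p of 0.00505 in edgeR's quasi-likelihood test). There the lowest correlation of same-numbered libraries, 0.0974, fell just short of the 0.1 asked for pairing. Small CCN1 and CCN2 changes changed sign in 3 of 131 and 3 of 110 refits under other settings, and in 24 of 144 and 20 of 120 with 1 library left out, and none was called. CCN4 and CCN6 lay too near the floor for any fold.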

Other observations

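The genes most like CCN2 over the 42 libraries, after centring each batch, were DUSP5, a phosphatase of ERK (r = 0.776), RCAN1, an inhibitor of calcineurin (r = 0.654), and CCN1 (r = 0.606). Those most like CCN1 were CCN2, GADD45A, a stress-induced growth arrest gene (r = 0.584), and RFLNB (r = 0.573). Libraries of one line, batch and depth are shared between the genes, so these values describe the libraries.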
